A study of Mus musculus with 12 samples.

Results

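The genes described here are the BMP ligands Bmp2, Bmp4 and Bmp7, the secreted BMP antagonist Grem1, and 6 genes that BMP signalling switches on: Bambi, Smad6, Smad7, Id1, Id2 and Id3. These 10 genes were chosen by name, as a pathway, with earlier results of these data known. They were matched by Ensembl identifier among the 53465 genes of the deposited files. They were measured in 12 RNA-seq libraries from mouse forelimb buds, in 4 groups of 3, each library made from 1 pair of buds of a Swiss albino embryo. In the Tbx3 series, embryos at E9.75 to E10 with 28 to 31 somites were wild type (Tbx3_WT) or homozygous for the Tbx3 ΔVenus allele (Tbx3_del), in which a Venus reporter followed by a termination signal sits at the start codon. In the Hand2 series, embryos at E10 to E10.25 with 31 to 33 somites were Prrx1-Cre;Hand2+/+ (Hand2_WT) or Prrx1-Cre;Hand2Δ/Δc (Hand2_del). All 6 embryos of the Hand2 series carry Prrx1-Cre, which acts in limb mesenchyme, so the controls share the transgene. Cells outside the mesenchyme are not targeted by it, but the mutants also carry an allele written Δ, without the c. The groups may thus differ in Hand2 outside the mesenchyme too, which was not tested. TBX3 and HAND2 are transcription factors of the early limb bud.

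BMPs are secreted ligands that bring together type I and type II receptor kinases, which phosphorylate SMAD1, SMAD5 and SMAD9 in the receiving cell. These enter the nucleus with SMAD4 and activate target genes, among them the Id genes and the inhibitors Smad6, Smad7 and Bambi, which dampen the signal again. Gremlin 1, the product of Grem1, binds BMP2, BMP4 and BMP7 outside the cell and keeps them from their receptors. In the limb bud, Grem1 in the posterior and distal mesenchyme keeps BMP activity low under the apical ectodermal ridge, which sustains the FGF genes of the ridge and, through them, Shh.

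Among the 10 genes, Grem1 and Id2 passed the test in the Hand2 comparison, so their promoters are shown. Both are the 250 bases before the RefSeq start (GRCm38.p6), read 5′ to 3′ on the strand of the gene. Grem1 (ENSMUSG00000074934) lies on the minus strand of chromosome 2 from 113746164 to 113758646, and its window is chr2:113758649-113758898. Id2 (ENSMUSG00000020644) lies on the minus strand of chromosome 12 from 25093799 to 25097140, and its window is chr12:25096093-25096342. The Id2 window follows the RefSeq start and lies inside the GENCODE span of the gene, which begins further upstream. Capitals mark GGCGCC, a GC-rich motif of the kind that SMADs bind, which reads the same on both strands.
Grem1: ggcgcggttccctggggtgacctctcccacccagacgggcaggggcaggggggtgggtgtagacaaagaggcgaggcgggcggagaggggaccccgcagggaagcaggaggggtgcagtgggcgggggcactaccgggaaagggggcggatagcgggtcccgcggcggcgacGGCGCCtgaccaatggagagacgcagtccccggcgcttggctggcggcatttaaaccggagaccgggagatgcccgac
Id2: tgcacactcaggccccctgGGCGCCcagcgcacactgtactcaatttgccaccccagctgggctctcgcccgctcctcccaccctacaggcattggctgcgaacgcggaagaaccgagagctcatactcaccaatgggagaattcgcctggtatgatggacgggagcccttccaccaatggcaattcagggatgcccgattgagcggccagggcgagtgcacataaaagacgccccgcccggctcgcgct
Each window held 1 match, from 78 to 73 bases before the start in Grem1 and from 231 to 226 bases before it in Id2. The share of all 32851 promoter windows of this length with GGCGCC was 9.586%. GC made up 72% of the Grem1 window and 62.8% of the Id2 window. Neither window held CATCTG, an E-box core (in 14.44% of all windows), or GGTGTG, a core motif of T-box factors (in 16.28%), on either strand. These matches describe letters in the reference sequence. Binding was not measured.

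The Tbx3 libraries held 23.3 to 31.8 M counts each (M, 1e6) and the Hand2 libraries 60.2 to 68.6 M. In the first Hand2_del library the gene CT010467.1 held 5.37% of the counts. In each other library the top gene was Eef1a1, with 0.897% to 1.01%. That Hand2_del library held the highest Hand2_del values of Bmp4, Bmp7, Smad6, Smad7 and Id1. The part of this difference in the levels was not tested. Levels are given as counts per 1e6 counts (CPM), scaled by the trimmed mean of M values (TMM) over all 12 libraries. Hand2 was at 120, 120 and 126 CPM in Hand2_WT and at 0.187, 2.21 and 0.384 CPM in Hand2_del, so the targeted transcript was low in each library labelled mutant. Tbx3 was at 78.0, 76.8 and 78.7 CPM in Tbx3_WT and at 80.2, 79.7 and 73.2 CPM in Tbx3_del. The count sums reads over the whole gene and does not check the ΔVenus allele, so the second group is called here the libraries labelled Tbx3-deficient. Hand2 was at 107, 98.5 and 116 CPM in Tbx3_WT and at 86.8, 84.8 and 62.1 CPM in Tbx3_del, without overlap. Its log2 fold change of -0.46 did not pass (edgeR adjusted p = 0.153), but 2 of 15 alternatives called it. In the Hand2 comparison Tbx3 had a log2 fold change of -0.24 (edgeR adjusted p = 0.175). Counts of Xist and Y-linked genes put 3 of 3 Tbx3_WT libraries as female, 1 of 3 labelled Tbx3-deficient, 2 of 3 Hand2_WT and 1 of 3 Hand2_del. The limb mesenchyme marker list summed to between 1230 and 1989 CPM over all libraries, and all 7 of its genes were tested in both comparisons. The labels name separate bud pairs but no litters, so p-values measure the spread between these libraries.

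The levels of the 10 genes were first ordered within each group, per kilobase of exon, so that long and short genes could be compared. In Hand2_WT, Id3 stood highest with 71.9 ± 8.56 CPM per kb (SD, n = 3), followed by Id1 with 62.7 ± 4.65 and Id2 with 38.1 ± 0.778. The ID proteins bind basic helix-loop-helix factors and keep them from DNA. Bmp4 (24.9 ± 1.99) and Bmp7 (22.6 ± 0.478) followed, and Bmp2 was the lowest of the 10 in each of the 4 groups, at 1.19 ± 0.108 CPM per kb in Hand2_WT. The libraries of Id3 and Id1 overlapped, as did those of Bmp4 and Bmp7 and those of Grem1 and Smad6. In the other neighbouring pairs of Hand2_WT the 3 libraries of 1 gene all lay above the 3 of the next. Grem1 was the sixth of the 10 in Hand2_WT, at 13.3 ± 2.09 CPM per kb, and the ninth in Hand2_del, at 5.29 ± 0.922, where its libraries all lay below those of Smad7. It was the eighth in both groups of the Tbx3 series, at 9.87 ± 2.68 and 8.79 ± 1.27 CPM per kb, and overlapped with Bambi in both. This order rests on annotated exon lengths.

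**Figure D1:**
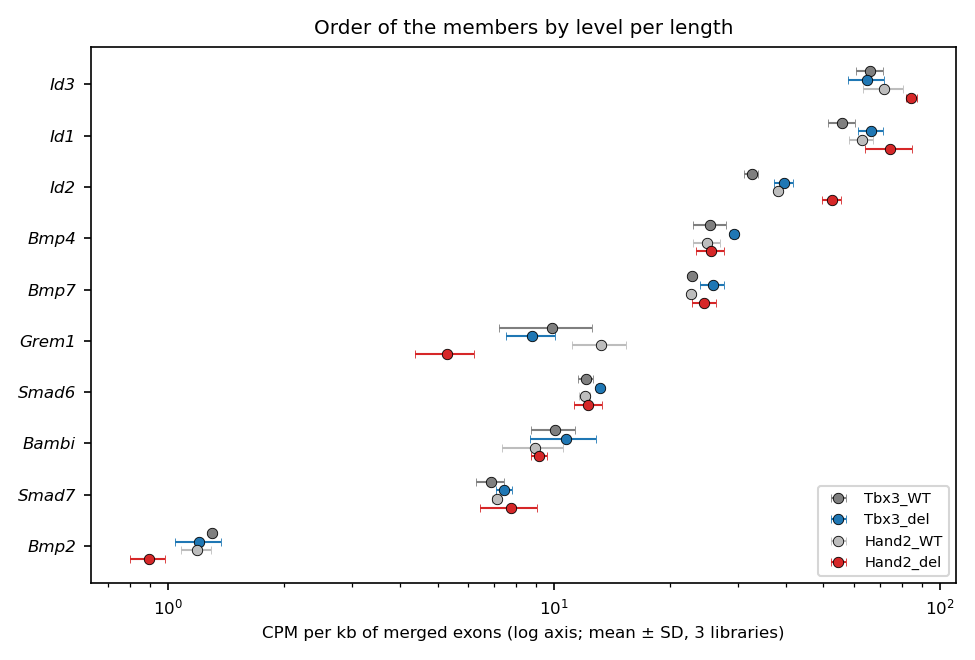
Level of each of the 10 genes per kilobase of exon (CPM per kb, log axis) in the 4 groups. Points are means of 3 libraries and bars the SD. The Id genes stood highest, Bmp2 lowest, and Grem1 moved from the sixth place in Hand2_WT to the ninth in Hand2_del.

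The Hand2_del genotype went with a lower level of the antagonist and a higher level of 1 Id gene, while the 3 ligands and 3 inhibitors did not pass the test. With edgeR's quasi-likelihood test and adjustment over all 17488 genes tested, 2 of 10 genes were called at an adjusted p under 0.05, Grem1 lower and Id2 higher. Of all genes tested, 10.5% were called, 4.68% higher and 5.82% lower, so 1 gene in each direction is a share near the background. Values did not overlap between the groups for 4 of 10 genes, against 37.9% of all genes. The median log2 fold change (Hand2_del minus Hand2_WT) was 0.07 over the 10 genes and 0.013 over all genes. In whole buds, fewer cells of a type and less RNA per cell cannot be told apart.

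**Figure D2:**
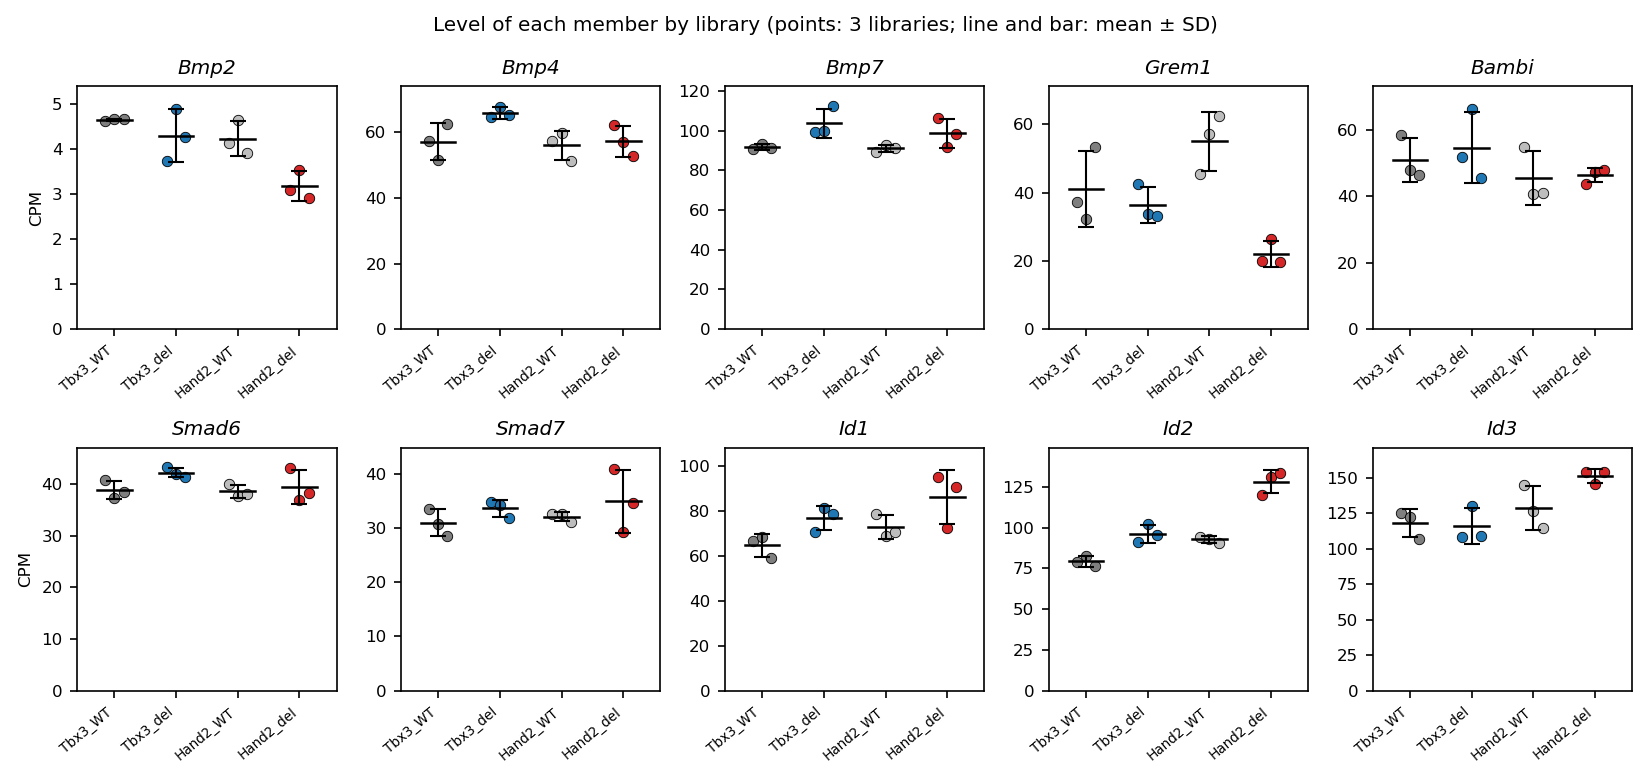
Level of each of the 10 genes (CPM, linear axes that start at 0) in the 12 libraries. Points are libraries, and the line and bar give the mean and SD of 3. The Hand2_del points lie below all Hand2_WT points for Grem1 and Bmp2 and above them for Id2 and Id3.

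Grem1 was at 45.6, 57.1 and 62.5 CPM in the Hand2_WT libraries and at 20.0, 26.4 and 19.5 CPM in the Hand2_del libraries. The highest mutant library lay well below the lowest control. The mean fell from 55.0 ± 8.65 to 22.0 ± 3.83 CPM (SD, n = 3), which is 2.51-fold lower (log2 fold change -1.33 ± 0.153 SE, edgeR adjusted p = 0.00668). A larger log2 fold change in size was seen in 2.54% of the genes tested. Grem1 was called in all 16 alternatives tried, with log2 fold changes from -1.48 to -1.23.

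Among the ligands, Bmp2, which lies on chromosome 2 from 133552159 to 133562885, was at 4.12, 4.65 and 3.90 CPM in Hand2_WT and at 3.08, 3.54 and 2.90 CPM in Hand2_del. Each mutant library lay below each control, and the log2 fold change was -0.41 ± 0.127 (SE), but it did not pass the edgeR test (adjusted p = 0.0771). DESeq2 called it, with an adjusted p of 0.0472, but called 3489 of all genes in this comparison, against 1836 by edgeR. Bmp4 (chromosome 14, 46383520 to 46390669) was at 57.3, 59.8 and 51.1 CPM in Hand2_WT and at 62.1, 57.0 and 52.8 CPM in Hand2_del. The groups overlapped, and the 95% interval of its log2 fold change ran from -0.15 to 0.21. The Bmp4 exons share 89 bp with a gene on the opposite strand, Gm15217, and strand use in counting is not given in the sources used here. Bmp7 (chromosome 2, 172868012 to 172940321) was at 89.0, 92.9 and 91.1 CPM in Hand2_WT and at 106, 91.6 and 98.5 CPM in Hand2_del. Its second mutant library lay within the control range, and its interval ran from -0.013 to 0.25. The CPM of the 3 ligands summed to between 146 and 157 in Hand2_WT and between 152 and 171 in Hand2_del.

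The 3 inhibitors act at different steps of the pathway: BAMBI is a membrane pseudoreceptor without a kinase domain, SMAD6 blocks the BMP-driven SMADs, and SMAD7 blocks signalling by BMP and TGF-β receptors. Bambi (chromosome 18, 3507923 to 3516404) was at 54.8, 40.7 and 40.9 CPM in Hand2_WT and at 43.9, 47.5 and 47.9 CPM in Hand2_del. The first control library was the highest of all 6, and the log2 fold change was 0.03 with an interval from -0.24 to 0.31. A processed copy, Bambi-ps1, could share its reads. Smad6 (chromosome 9, 63953076 to 64022059) was at 39.99, 37.7 and 38.1 CPM in Hand2_WT and at 43.1, 36.9 and 38.2 CPM in Hand2_del, with an interval from -0.12 to 0.18. Smad7 (chromosome 18, 75367529 to 75395935) was at 32.6, 32.6 and 31.2 CPM in Hand2_WT and at 41.0, 29.3 and 34.8 CPM in Hand2_del. Its mutant libraries lay on both sides of the controls, and the interval ran from -0.14 to 0.39. Without the first Hand2_del library the log2 fold change was -0.0062 for Smad7, -0.040 for Smad6 and -0.032 for the ligand Bmp4. Those of Bmp7 and Id1 kept their sign. None of the 3 inhibitors passed the test by edgeR, DESeq2 or limma-voom.

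Id2 was at 94.4, 93.4 and 90.7 CPM in the Hand2_WT libraries and at 120.1, 131 and 133 CPM in the Hand2_del libraries. The controls lay close together and every mutant library lay above them. The mean rose from 92.8 ± 1.90 to 128 ± 7.09 CPM (SD, n = 3), which is 1.38-fold higher (log2 fold change 0.47 ± 0.0473 SE, edgeR adjusted p = 0.00405). In absolute size, 17.6% of the genes tested had a larger log2 fold change. Id2 was called in all 16 alternatives, with log2 fold changes from 0.44 to 0.51.

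Id1 (chromosome 2, 152736251 to 152737410) was at 78.9, 68.9 and 70.5 CPM in Hand2_WT and at 95.3, 72.5 and 91.0 CPM in Hand2_del. Its second mutant library lay within the control range, and the log2 fold change of 0.25 ± 0.104 (SE) did not pass the edgeR test (adjusted p = 0.156). Without that library the edgeR adjusted p was 0.0421. Id3 (chromosome 4, 136143497 to 136145755) was at 145, 126 and 115 CPM in Hand2_WT and at 154, 145 and 154 CPM in Hand2_del. The lowest mutant library lay just above the highest control, and the log2 fold change of 0.23 ± 0.0834 (SE) did not pass the edgeR test (adjusted p = 0.109). DESeq2 gave an adjusted p of 0.0430, with more of all genes called (3489, against 1836 by edgeR). The CPM of the 3 Id genes summed to between 276 and 318 in Hand2_WT and between 349 and 378 in Hand2_del, without overlap.

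Marker lists of other cell types were read in the same libraries, and their calls are to be set against the 10.5% of all genes called. The 10 endothelial markers summed to between 316 and 318 CPM in Hand2_WT and between 335 and 361 CPM in Hand2_del, with 1 of 10 called higher and a median log2 fold change of 0.13. The 10 markers of ectoderm and ridge summed to between 312 and 334 CPM in Hand2_WT and between 277 and 297 CPM in Hand2_del, with 1 of 10, Fgf8, called lower. The 7 macrophage markers summed to between 4.33 and 7.16 CPM in Hand2_WT and between 8.33 and 16.8 CPM in Hand2_del, with 1 called higher. For 7 body wall and coelomic markers the sums ran from 6.34 to 46.6 CPM in Hand2_WT and from 32.4 to 87.2 CPM in Hand2_del, an overlap, with 1 of 6 tested called higher. The 7 limb mesenchyme markers summed to between 1396 and 1582 CPM in Hand2_WT and between 1688 and 1989 CPM in Hand2_del, with 3 called higher and 1 lower, against 4.68% and 5.82% of all genes. The 6 somite markers summed to between 83.4 and 122 and between 115 and 159 CPM, an overlap, with 1 called higher. Muscle progenitor markers summed to between 105 and 120.2 CPM in Hand2_WT and between 134 and 138 CPM in Hand2_del, and neural markers to between 94.5 and 104 and between 108 and 122 CPM. Both were without overlap, and 0 were called by edgeR, of 5 and 6 tested. Red cell markers, with 0 called, overlapped, at 2394 to 3991 and 3148 to 3767 CPM. None of the lists held a gene at 0 in all 6 libraries of the series. The part of other cell types in the levels of Grem1 and the Id genes was not tested.

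In the Tbx3 series the same 10 genes were compared between the wild type and the libraries labelled Tbx3-deficient. Here 0 of 10 genes were called by edgeR over 15130 genes tested, against 1.01% of all genes. DESeq2 called 1 of 10, Id2, and limma-voom called 0. Of all genes, DESeq2 called 551 and limma-voom 99, against 153 by edgeR. At an unadjusted p under 0.05, 4 of 10 passed by edgeR, by DESeq2 and by limma-voom (Bmp4, Bmp7, Id1 and Id2), against 14.3% of all genes by edgeR. For 5 of 10 genes (these 4 and Smad6) each library labelled Tbx3-deficient lay above each control, against 11.1% of all genes in that direction. For 0 of 10 did each lie below. This 1-direction share is not comparable with the 37.9% given for the Hand2 comparison, which counts both directions. Each Tbx3_WT library was female, but only the third library labelled Tbx3-deficient was, so embryo sex and label largely coincide here. A fit with embryo sex rests, on the mutant side, on that single library and cannot separate them. The part of embryo sex in these shifts was not tested. The median log2 fold change (Tbx3_del minus Tbx3_WT) was 0.11 over the 10 genes and -0.0030 over all genes.

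Among the ligands of the Tbx3 series, Bmp4 was at 57.4, 51.4 and 62.6 CPM in Tbx3_WT and at 64.6, 67.8 and 65.3 CPM in Tbx3_del. The 2 ranges lay close together without overlap, and the log2 fold change was 0.20 ± 0.0726 (SE), with an edgeR adjusted p of 0.269. Bmp7 was at 90.6, 93.3 and 91.2 CPM in Tbx3_WT and at 99.2, 99.9 and 112 CPM in Tbx3_del. All 3 of the latter lay above the controls, and the log2 fold change was 0.17 ± 0.0589 (SE), with an edgeR adjusted p of 0.240. Bmp2 was at 4.61, 4.65 and 4.65 CPM in Tbx3_WT and at 3.73, 4.89 and 4.25 CPM in Tbx3_del, and the interval of its log2 fold change ran from -0.46 to 0.23. Grem1, the antagonist, was at 37.3, 32.1 and 53.4 CPM in Tbx3_WT and at 42.5, 33.6 and 33.2 CPM in Tbx3_del. The third control was the highest of the 6, and the log2 fold change of -0.18 had an interval from -0.61 to 0.25. Without that control it was 0.067, so its sign rested on 1 library.

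None of the 3 inhibitors passed the test in the Tbx3 series by edgeR, DESeq2 or limma-voom. Smad6 was at 40.7, 37.3 and 38.4 CPM in Tbx3_WT and at 43.2, 41.9 and 41.4 CPM in Tbx3_del, a log2 fold change of 0.11 ± 0.0522 (SE) with an edgeR adjusted p of 0.381. Smad7 was at 33.6, 30.8 and 28.6 CPM in Tbx3_WT and at 34.9, 34.4 and 31.9 CPM in Tbx3_del, with overlap and an interval from -0.051 to 0.28. Bambi was at 58.5, 48.0 and 46.4 CPM in Tbx3_WT and at 52.0, 66.4 and 45.5 CPM in Tbx3_del, and its interval ran from -0.23 to 0.42. Of the inhibitors, Smad6 alone was without overlap, and Bambi spread most.

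Id1 was at 66.8, 68.5 and 59.1 CPM in Tbx3_WT and at 70.7, 81.5 and 78.6 CPM in Tbx3_del, and its log2 fold change was 0.24 ± 0.0738 (SE; edgeR adjusted p = 0.196). Id2 was at 79.0, 82.9 and 76.3 CPM in Tbx3_WT and at 91.3, 102 and 95.3 CPM in Tbx3_del. The lowest of the latter lay above the highest control for both genes. The Id2 mean was 79.4 ± 3.31 and 96.3 ± 5.53 CPM (SD, n = 3), 1.21-fold higher (log2 fold change 0.27 ± 0.0565 SE), and it missed the threshold by edgeR (adjusted p = 0.0843, with a range from 0.0120 to 0.506 over 15 alternatives). Id3 was at 125, 123 and 107 CPM in Tbx3_WT and at 109, 130.4 and 109 CPM in Tbx3_del, and its interval ran from -0.23 to 0.17. Beside these values, the 10 endothelial markers summed to between 306 and 353 CPM in Tbx3_WT and between 304 and 349 CPM in Tbx3_del, and 0 were called. The 7 body wall markers summed to between 10.0 and 65.5 and between 81.6 and 149 CPM, without overlap. Of these, 6 were tested and 0 called, and all 6 had positive log2 fold changes, from 1.44 to 2.15. The 7 limb mesenchyme markers summed to between 1460 and 1520 and between 1230 and 1371 CPM, without overlap and with 1 called lower. The 7 macrophage markers summed to between 1.72 and 4.96 and between 6.67 and 8.58 CPM, without overlap. Only 3 of them were tested, with log2 fold changes from 1.22 to 1.62, and 0 were called. The 10 ectoderm and ridge markers summed to between 322 and 345 and between 330 and 355 CPM, an overlap, with 0 called. Neural markers, 4 of 7 tested, summed to between 91.6 and 99.7 and between 102 and 119 CPM, without overlap. Muscle progenitor, somite and red cell sums overlapped, and 0 were called in these 4 lists. The somite sum holds opposite shifts, with 3 of 6 genes above all controls and 2 below them. Of 5 muscle progenitor genes, 2 lay above all controls and 0 below. Of all genes tested, 11.1% lay above. The part of these cell types in the levels was not tested.

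**Figure D3:**
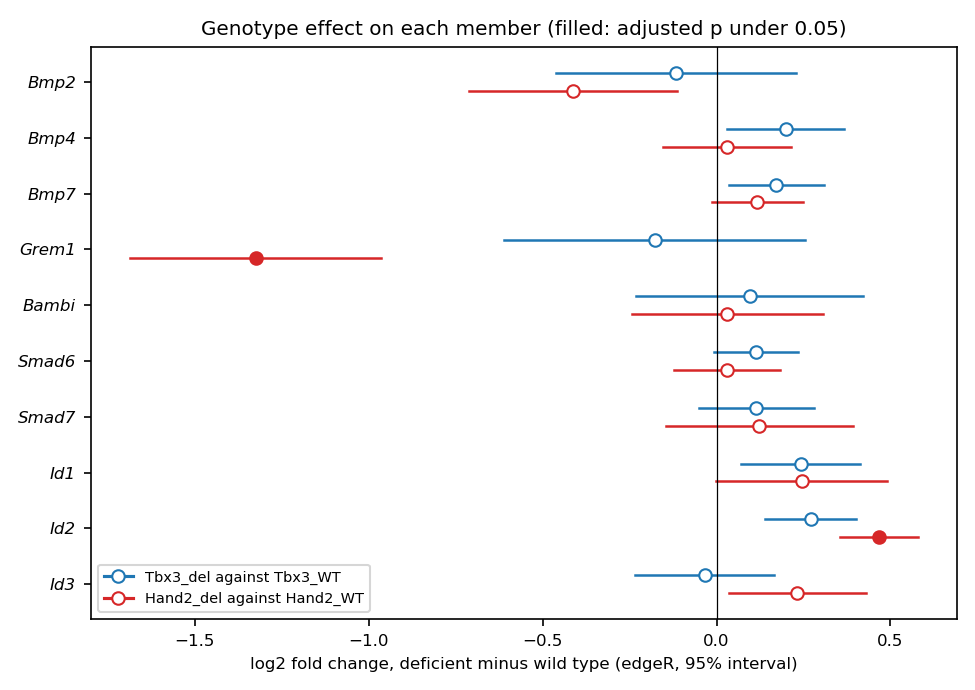
Log2 fold change (mutant minus wild type) of each of the 10 genes in the Tbx3 and the Hand2 comparison, with approximate 95% intervals derived from edgeR's F test. Filled points passed an adjusted p of 0.05, which holds for Grem1 (-1.33) and Id2 (0.47) in the Hand2 comparison and for 0 of 10 in the Tbx3 comparison.

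Whether the 2 effects differed was tested with an interaction term over all 12 libraries. By edgeR 0 of 10 genes were called, against 1.68% of 17360 genes. DESeq2 called 1 (Grem1) and limma-voom 0, and 2 of 10 (Grem1 and Id2) passed at an unadjusted p under 0.05 by edgeR, against 17.4% of all genes. Of all genes, DESeq2 called 878, against 292 by edgeR. The Grem1 effect was lower in the Hand2 series by a log2 difference of -1.15 ± 0.267 (SE), with an interval from -1.73 to -0.56 and an edgeR adjusted p of 0.0598. That p ranged from 0.000698 to 0.138 over 21 alternatives, 4 of which passed, among them leaving out the third Tbx3_WT library (0.0246) or the second Hand2_del library (0.0496). For Id2 the difference was 0.20 with an interval from 0.028 to 0.37 (edgeR adjusted p = 0.228). The widest intervals among the other 8 genes were those of Bambi, from -0.52 to 0.39, and of Bmp2, from -0.70 to 0.11. With the Hand2 libraries thinned to the depth of the Tbx3 libraries, the Grem1 difference was -1.14 (edgeR adjusted p = 0.0740). Stage, kind of allele and Prrx1-Cre, carried in the Hand2 series, differ together between the series, and their parts in a difference cannot be told apart. Sequencing depth differs as well, and embryo sex largely coincides with the label in the Tbx3 series.

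The genes beside Grem1 on chromosome 2 were read in the same fits, since control regions of Grem1 are known to lie in and beyond its neighbour Fmn1. Fmn1, which encodes the actin regulator formin 1 and runs from 113327736 to 113716767, was at 7.73, 6.63 and 7.34 CPM in Hand2_WT and at 4.69, 4.73 and 4.54 CPM in Hand2_del. The groups were far apart relative to their spread, and the log2 fold change was -0.64 ± 0.0920 (SE) with an edgeR adjusted p of 0.0141. The call was lost without the first or the third Hand2_WT library (adjusted p = 0.0516 and 0.0680 by edgeR) and without the third Hand2_del library (0.0571). Exons of Fmn1 overlap antisense genes, and strand use is not given. Scg5 (log2 fold change 0.20, edgeR adjusted p = 0.625) and Arhgap11a (-0.10, edgeR adjusted p = 0.169), on the other side of Grem1, did not pass. Within 1000 kb of the Grem1 start, a window chosen after the Fmn1 value was seen, 10 genes were tested. Beside Grem1 and Fmn1, the genes that set the window, 0 were called by edgeR. In the Tbx3 comparison, 0 of 9 genes in this window were called by edgeR, and Fmn1 had a log2 fold change of -0.28 (adjusted p = 0.561).

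**Figure D4:**
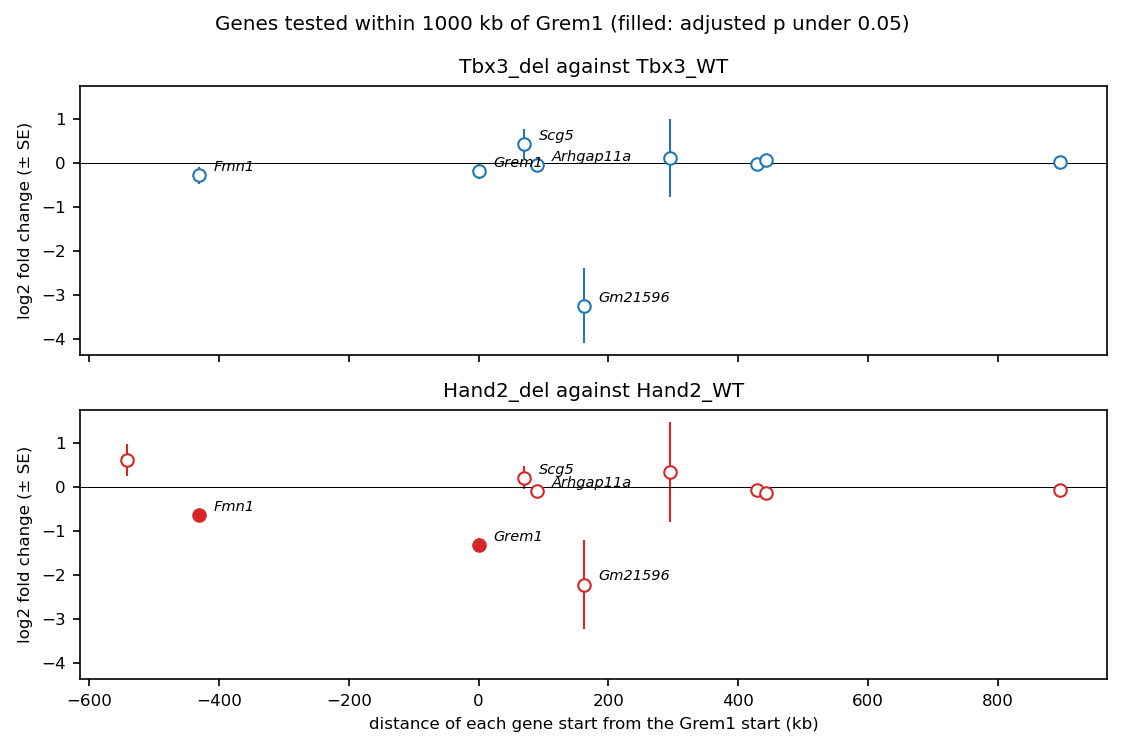
Log2 fold change (mutant minus wild type, ± SE) of genes tested within 1000 kb of the Grem1 start, by distance in kb, in both comparisons. Filled points were called. Grem1 and Fmn1 were called in the Hand2 comparison, and the processed pseudogene Gm21596 had wide errors in both (-2.22 ± 1.003 and -3.24 ± 0.848).

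The rest of the BMP pathway was read from 5 lists with 53 genes, of which 52 were found in the files. In the Hand2 comparison 46 were tested, and 1 was called higher and 3 lower, a share near the 10.5% of all genes, with a median log2 fold change of 0.03. Among 8 other ligands tested, Gdf6, a ligand of joint formation, was at 8.37, 7.67 and 7.63 CPM in Hand2_WT and at 12.7, 11.3 and 11.2 CPM in Hand2_del. All 3 mutant libraries lay above the controls, and Gdf6 rose by a log2 fold change of 0.57 ± 0.0862 (SE, edgeR adjusted p = 0.0162). Of 10 receptors and co-receptors tested, 1 was called, the type II receptor Acvr2b, which fell by 0.21 on the log2 scale (edgeR adjusted p = 0.0266). Of 6 SMADs and SMURFs tested, 1 was called, Smurf2, a ubiquitin ligase of the pathway, which fell by 0.19 (edgeR adjusted p = 0.0280).

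Of 7 further response genes, 1 was called, Hey1, a bHLH repressor that also answers NOTCH, which fell by 0.39 on the log2 scale (edgeR adjusted p = 0.0438). The 15 extracellular modulators tested, the group to which noggin and chordin belong, had no call by edgeR in the Hand2 comparison and a median of 0.24. Leaving out the third Hand2_WT library ended the calls of these 4 genes, with edgeR adjusted p of 0.0767 for Gdf6, 0.106 for Acvr2b, 0.116 for Smurf2 and 0.143 for Hey1. Leaving out others also ended those of Acvr2b, Smurf2 and Hey1, which were lost in 6, 6 and 8 of 16 alternatives. In the Tbx3 comparison 43 of the 52 were tested and 0 were called by edgeR, with a median of 0.02. Gdf6 was there at 8.45, 4.52 and 5.49 CPM in Tbx3_WT and at 8.71, 11.01 and 10.8 CPM in Tbx3_del, without overlap and with an edgeR adjusted p of 0.211.

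Grem1 links Shh to the FGFs of the ridge, so the genes of that loop were set beside it. Of 9 genes, 7 were called lower and 0 higher in the Hand2 comparison, against 5.82% and 4.68% of all genes, with a median log2 fold change of -1.08. This list was chosen with earlier results of these data known, so the shares are a description. Ptch1, the SHH receptor and target, fell by 1.78 on the log2 scale (edgeR adjusted p = 0.000320) and Gli1, a transcription factor and target of SHH, by 2.27 (0.000686). Shh itself was at 4.21, 10.1 and 7.51 CPM in Hand2_WT and at 0.0340, 0.442 and 0.103 CPM in Hand2_del (edgeR adjusted p = 0.0108). Fgf8, the main FGF of the ridge, fell by 0.75 (edgeR adjusted p = 0.0144). The count of 7 was 3 without the third Hand2_WT library and 4 without the first or the third Hand2_del library. In the Tbx3 comparison 1 of 9 was called by edgeR, against 1.01% of all genes. It was Ptch1, which fell by 0.53 on the log2 scale (adjusted p = 0.0397), and this call was lost in 7 of 15 alternatives, among them leaving out any library but the first labelled Tbx3-deficient. Shh was there at 5.16, 5.30 and 5.11 CPM in Tbx3_WT and at 2.83, 1.40 and 1.11 CPM in Tbx3_del, without overlap, and its log2 fold change of -1.56 ± 0.323 (SE) did not pass (edgeR adjusted p = 0.0831).

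**Figure D5:**
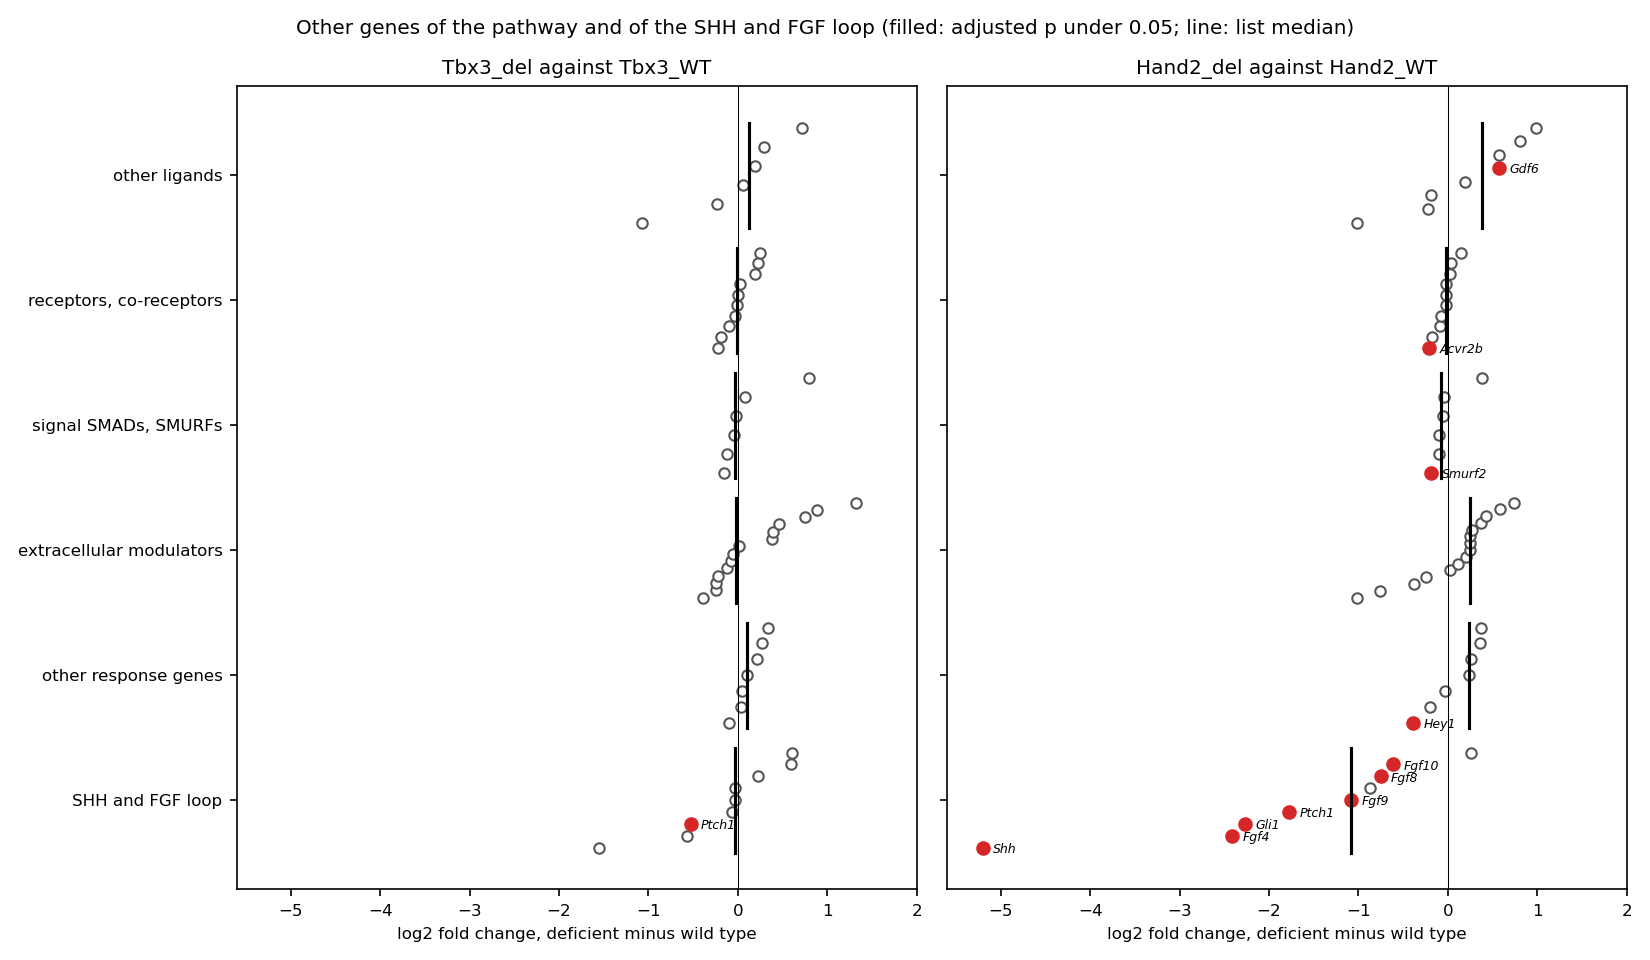
Log2 fold change (mutant minus wild type) of the other BMP pathway genes and of the SHH and FGF loop in both comparisons. Each point is a gene, filled and named where its adjusted p was under 0.05, and black lines are list medians. In the Hand2 comparison 7 of 9 loop genes were called lower, against 5.82% of all genes. Leaving out single libraries gave 3 to 7. Of 46 BMP pathway genes, 3 were called lower and 1 higher, against 5.82% and 4.68% of all genes. The lists were chosen with earlier results of these data known.

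The genes whose pattern over the 12 libraries was most like that of Grem1 and of Id2 were searched among 10820 genes, after centring each gene on the wild types of its series. Likeness was the root mean square difference of log2 CPM, so that 0 would be an identical pattern. For Grem1 the nearest were Tpd52l1 (0.253), Gm15920, a processed pseudogene (0.256), and Frem1, which encodes a basement membrane protein (0.263). Frem1 had a log2 fold change of -1.08 in the Hand2 comparison and of -0.37 in the Tbx3 comparison, beside -1.33 and -0.18 for Grem1. For Id2, Lmf1 (0.0650) and Dach1 (0.0841) were among the 3 nearest. Lmf1 had a log2 fold change of 0.43 in the Hand2 comparison and of 0.28 in the Tbx3 comparison, beside 0.47 and 0.27 for Id2. These genes were picked for their likeness, so the values are a description.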

How the data were processed

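RNA was measured in 12 forelimb bud libraries (SMARTer kit, 85 bp single-end reads, RIN of at least 8.0, per the labels' protocols). The authors deposited RSEM expected counts per Ensembl gene, and the submitters' processing notes name FastQC 0.11.4, STAR 2.5.2, RSEM 1.3.0 and mm10. Whether counting used strand is not given in the sources used here. Before testing, expected counts were rounded to whole numbers. Genes were filtered with filterByExpr (minimum count 10, minimum total 15), scaled by TMM within each series and tested with edgeR 4.0.16 (quasi-likelihood, no covariate, R 4.3.3), with Benjamini-Hochberg adjustment over all genes tested and calls under 0.05. The interaction used all 12 libraries. The edgeR test gives no SE, so SE and 95% intervals were derived from the log2 fold change, the F value and its degrees of freedom, as an approximation. Symbols, exon lengths and positions came from GENCODE M21 (GRCm38), and promoters from RefSeq (GRCm38.p6), where 5 of 10 genes matched (Bmp4, Grem1, Smad6, Id2 and Id3). The scripts were tested on simulated data. Alternatives were DESeq2 1.42.0, limma-voom 3.58.1, other scalings and filters, a replicate block, embryo sex, a fit of 4 groups, thinning and leaving out each library. Besides the 10 genes and both targeted genes, the text names the 3 neighbours of Grem1, up to 4 called genes per pathway list by smallest adjusted p, and the 3 nearest patterns of Grem1 and Id2, of which 1 is not reported here. The genes and lists were chosen with earlier results of these data known. Between 12.5% and 16.2% of the values per library were not whole, and 3 libraries a group limit the precision.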

Additional observations from a re-analysis of the deposited data

How the results depend on the processing

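Over the alternatives run, Grem1 and Id2 kept their direction and their calls in the Hand2 comparison. The number of the 10 genes called in the Tbx3 comparison, 0 by edgeR, was 1 with DESeq2, with no filter on low counts and with a fit of all 4 groups, each time Id2. All genes called numbered 551, 504 and 422 in these fits, against 153. In the Hand2 comparison the number of the 10 was 4 with DESeq2, against 2, and leaving out single libraries gave 2 to 3. All genes called there numbered 3489 with DESeq2, against 1836 by edgeR, and 218 to 2223 when single libraries were left out. For the difference between both effects the number of the 10 was 1 (Grem1) with DESeq2 and with no filter, against 0, and leaving out single libraries gave 0 to 1. All genes called for the difference numbered 878 with DESeq2, against 292 by edgeR. With the length of the longest transcript, Id3 ranked 1 and Id1 ranked 2 in the libraries labelled Tbx3-deficient. The cause of these changes was not tested.

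Effects that reversed were uncalled and small. In the Tbx3 comparison Bambi was at a log2 fold change of -0.17 with embryo sex in the fit, and leaving out single libraries gave -0.33 to 0.067 for Grem1, -0.066 to 0.21 for Bambi, -0.12 to 0.011 for Id3 and -0.034 to 0.031 for Tbx3. In the Hand2 comparison leaving out single libraries gave -0.035 to 0.086 for Bmp4, -0.043 to 0.18 for Bambi, -0.040 to 0.073 for Smad6 and -0.0062 to 0.24 for Smad7. For the difference, Smad7 was at -0.011 with limma-voom, Id1 at -0.0017 with DESeq2, -0.0096 with limma-voom, -0.0040 with no filter and -0.013 with thinned libraries, and Scg5 at 0.11 with thinned libraries. Leaving out single libraries gave there -0.10 to 0.0043 for Bmp7, -0.18 to 0.10 for Bambi, -0.11 to 0.12 for Smad7, -0.068 to 0.11 for Id1 and -0.52 to 0.018 for Scg5.

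The replicate numbers gave no clear sign of pairing. Deviations of same-numbered libraries correlated between -0.13 and 0.080, and not every library correlated best with its own number. Such correlations over 3 libraries a group cannot exclude a shared litter or preparation. With a replicate block, 0, 2 and 0 of the 10 genes were called in the Tbx3 comparison, the Hand2 comparison and their difference. The difference was then -0.0036 for Smad7 and -0.0031 for Id1. All genes called numbered 87, 161 and 69 with the block, against 153, 1836 and 292 without it. The call of Fmn1 was lost with it (adjusted p = 0.0968). Other fits gave 22 (embryo sex) to 551 (DESeq2) calls in the Tbx3 comparison, 526 (embryo sex) to 3489 (DESeq2) in the Hand2 comparison and up to 878 (DESeq2) for the difference, and leaving out single libraries gave 23 to 220, 218 to 2223 and 123 to 336. The lowest count of the Hand2 comparison, 218, was that without the third Hand2_WT library. The SHH and FGF genes called lower in the Hand2 comparison were 4 with the block and 4 with embryo sex, against 7.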
